A study of Mus musculus with 9 samples.

Results

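Resting regulatory T cells of mice carry messenger RNAs of small calcium-binding S100 proteins, galectins, annexin A2, vimentin and the LIM-domain protein Crip1, which effector and memory T cells are known to hold at higher levels than naive ones. The 10 transcripts described here were taken by symbol: S100a4, S100a6, S100a10, S100a11, S100a13, Lgals1, Lgals3, Anxa2, Vim and Crip1. All 10 were among the 34092 gene rows of the count table, and all 10 passed the filter on low counts with 14424 genes in all. They were chosen by symbol with the CNS2KO and WT levels and fold changes of these samples already known, so what follows on the genotypes describes these libraries and tests nothing about the 10 as a set. The CNS2KO samples have the genotype Foxp3deltaCNS2-gfp, in which CNS2, a conserved stretch of noncoding DNA within Foxp3, is deleted and a green fluorescent reporter is carried at Foxp3. The WT samples have the genotype Foxp3gfp, with the same reporter and the element in place. Both groups were primary T cells sorted without culture from mice and sequenced at rest, and the labels give no age, no organ and no count of animals per sample. Of 3 CNS2KO and 6 WT samples listed, 2 and 5 libraries could be used.

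S100 proteins are small proteins with EF-hand calcium-binding loops that mostly work as dimers. On binding calcium many of them expose a surface that docks onto target proteins such as annexins, myosin or the cytoskeleton. Galectins bind beta-galactoside sugars on glycoproteins, inside and outside the cell, and galectin-1 is known as one of the molecules through which regulatory T cells restrain other T cells. Annexins bind membrane phospholipids in a calcium-dependent way, and vimentin is the intermediate filament protein of lymphocytes and mesenchymal cells.

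The libraries held 21836578 and 21427618 reads on genes in CNS2KO 399 and 408, against 16557424 to 19154642 in the 5 WT libraries. Levels are given as CPM, the reads of a gene per 1000000 reads on genes, adjusted by the trimmed mean of M values (TMM), and a floor of 3 reads stood at 0.142 to 0.182 CPM. Foxp3, the transcription factor that defines the cells, stood at 452 ± 15.9 CPM in CNS2KO (SD, n = 2) and 488 ± 78.9 CPM in WT (SD, n = 5), and 6 of 6 regulatory T cell markers were measured. Red blood cell markers summed to 155.9 CPM in CNS2KO 399 and 31.2 CPM in CNS2KO 408, against 6.84 to 27.6 CPM in WT, so CNS2KO 399 stood apart in these. Their part in any result was not tested, and the fold change without CNS2KO 399 is given for each of the 10 members. In whole sorted samples, fewer cells that express a gene and less RNA per cell cannot be told apart.

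The 250 bases before the transcription start are shown for S100a6 and Vim, the only members whose CNS2KO libraries both had lower levels than all 5 WT libraries, and for S100a4, which lies close to S100a6 on chromosome 3. The sequences are from RefSeq on GRCm38.p6, all on the plus strand, written 5′ to 3′. Capitals mark matches, on either strand, to the TATA box (TATAAA), the CCAAT box and the letters CACCC, the only ones of the 5 searched motifs present in these windows. The windows are chr3:90612644-90612893 for S100a6, chr3:90603520-90603769 for S100a4 and chr2:13574061-13574310 for Vim.
S100a6: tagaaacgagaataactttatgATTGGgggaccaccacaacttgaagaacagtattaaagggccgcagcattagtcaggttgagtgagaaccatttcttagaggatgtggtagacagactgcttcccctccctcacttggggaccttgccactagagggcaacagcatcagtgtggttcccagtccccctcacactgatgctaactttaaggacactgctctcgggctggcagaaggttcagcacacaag
S100a4: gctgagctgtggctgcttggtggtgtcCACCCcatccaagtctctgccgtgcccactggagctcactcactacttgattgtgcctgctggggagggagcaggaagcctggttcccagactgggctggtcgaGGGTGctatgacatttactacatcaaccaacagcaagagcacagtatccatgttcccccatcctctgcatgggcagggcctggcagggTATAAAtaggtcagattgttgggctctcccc
Vim: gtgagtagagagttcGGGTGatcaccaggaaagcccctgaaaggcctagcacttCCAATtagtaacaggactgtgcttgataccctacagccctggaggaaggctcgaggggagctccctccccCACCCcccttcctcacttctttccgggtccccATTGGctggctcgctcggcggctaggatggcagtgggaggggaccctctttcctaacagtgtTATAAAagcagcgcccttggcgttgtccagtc

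Windows were matched for 8 of the 10 members, not for S100a10 and Lgals1. TATAAA, the core of the TATA box, lay 31 to 26 bases before the start of S100a4 and 32 to 27 bases before that of Vim, both on the gene's strand. Anxa2 held it at 17 to 12 bases, so 3 of 8 windows had a match on either strand, against 12.4% of 32841 windows of the same length. The window of S100a6 held a single match, a CCAAT on the opposite strand 228 to 224 bases before the start, and 3 of 8 windows held CCAAT against 33.9% of all windows. GGGCGG, the GC box, was in 4 of 8 windows (32.7% of all windows), TGANTCA, the AP-1 motif, in 2 of 8 (6.75%), and CACCC in 6 of 8 (52.0%). TGANTCA overlapped CACCC once in Anxa2, and CCAAT overlapped CACCC once in Lgals3. The TGANTCA matches were in S100a11 and Anxa2. Matches are descriptions of the letters and were not tested as binding sites.

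S100a6 (calcyclin), which binds annexins and cytoskeletal proteins, had 23.9 CPM in CNS2KO 399 and 32.8 CPM in CNS2KO 408, against 43.6, 40.2, 52.5, 43.9 and 80.4 CPM in WT 398, 402, 405, 1032 and 1037. The CNS2KO libraries were the lowest of the 7, and WT 1037 lay well above the others. CNS2KO minus WT, S100a6 had a log2 fold change of -0.88 (SE 0.31, 95% interval -1.56 to -0.20). Without CNS2KO 399 it was -0.66, without CNS2KO 408 it was -1.13, and with WT 398, 402 and 405 only it was -0.68. The 10 members had adjusted p = 1 in edgeR's quasi-likelihood test over 14424 genes, and 0 genes were called (0% of those tested), with 361 at an unadjusted p under 0.05. DESeq2 and limma-voom also called 0 genes, with 496 and 614 at an unadjusted p under 0.05. Without CNS2KO 408 the edgeR count at an unadjusted p under 0.05 was 1676, with 0 called and a smallest adjusted p = 0.0525, and without CNS2KO 399 it was 261. Among the members, 2 had an unadjusted p under 0.05, S100a6 and Vim, both with negative fold changes, as had 0.964% of the tested genes. That count of members was 0 without CNS2KO 399 and with a term for libraries 1032 and 1037, 2 without WT 402, and 1 with any other single library left out. In 2 of 10 members the CNS2KO libraries were the lowest of the 7, as they were in 3% of all tested genes. Since the genotype values were known when the members were chosen, nothing is read from these counts.

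**Figure D1:**
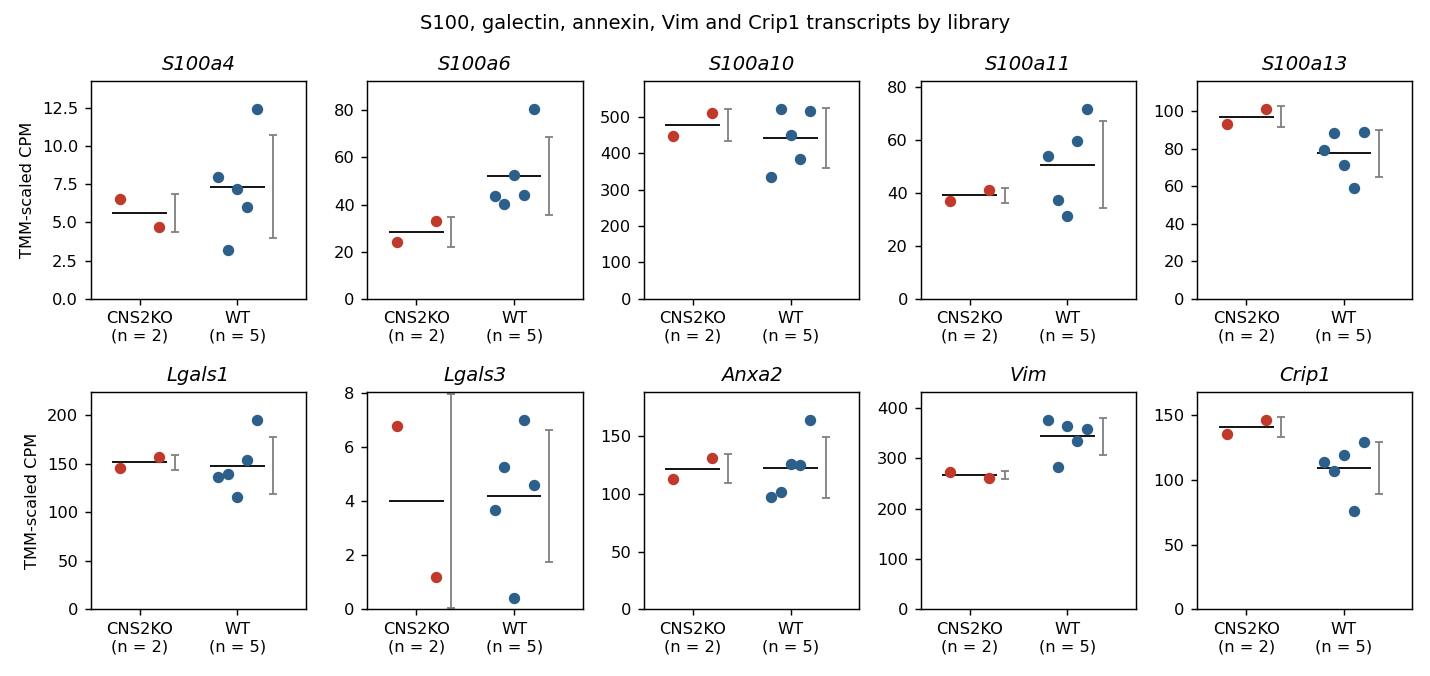
Each panel plots one transcript, with TMM-scaled CPM on the vertical axis from 0 and 1 point per library, CNS2KO (n = 2) left and WT (n = 5) right. Black lines are group means and grey bars ± 1 SD. The CNS2KO points of S100a6 (23.9 and 32.8 CPM) and Vim (261 and 273 CPM) lie below every WT point, and those of S100a13 and Crip1 lie above.

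S100a4 (metastasin), which binds non-muscle myosin and is a marker of memory T cells, had far fewer reads. It stood at 6.52 and 4.73 CPM in CNS2KO 399 and 408, from 138 and 99 reads, against 7.95, 3.22, 7.17, 5.99 and 12.4 CPM in WT 398, 402, 405, 1032 and 1037, from 53 to 213 reads. The genotypes overlapped, with WT 402 at the low end and WT 1037 at the high end. S100a4 had a log2 fold change of -0.39 (SE 0.56, 95% interval -1.60 to 0.83). It was -0.63 without CNS2KO 399, -0.18 without CNS2KO 408, -0.11 without WT 1037 and -0.12 with WT 398, 402 and 405 only, so its size rested on single libraries.

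S100a11 (calgizzarin), which partners annexin A1, had 37.0 and 41.1 CPM in CNS2KO 399 and 408, against 53.9, 37.3, 31.1, 59.4 and 71.5 CPM in WT 398, 402, 405, 1032 and 1037. The CNS2KO libraries overlapped WT 402 and lay above WT 405, and both WT libraries with numbers of 4 digits lay at the top. For S100a11 the log2 fold change of -0.37 (SE 0.32, 95% interval -1.07 to 0.32) was -0.30 without CNS2KO 399, -0.22 without WT 1037 and -0.06 with WT 398, 402 and 405 only. The labels do not say what the numbers mean, so 1032 and 1037 cannot be called a batch.

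S100a13, which takes part in the unconventional export of fibroblast growth factor 1 and interleukin-1 alpha, was the S100 member with the opposite arrangement to S100a6. It had 93.3 and 101 CPM in CNS2KO 399 and 408, against 79.5, 88.6, 71.4, 59.3 and 89.2 CPM in WT 398, 402, 405, 1032 and 1037. The CNS2KO libraries were the highest of the 7, the nearest being WT 1037 and WT 402. S100a13 had a log2 fold change of 0.33 (SE 0.21, 95% interval -0.13 to 0.78), and under the alternatives run it stayed between 0.24 and 0.39, with 0.39 reached without CNS2KO 399. S100a13 overlaps S100a1 at its start on GRCm38.p6, and S100a1 had at most 43 reads in any library.

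S100a10 (p11) lacks calcium binding and joins annexin A2 in a heterotetramer at the plasma membrane. It was the most abundant member per kilobase of exon, and had 446 and 509 CPM in CNS2KO 399 and 408, against 334, 520, 449, 385 and 517 CPM in WT 398, 402, 405, 1032 and 1037. The groups overlapped throughout, with a log2 fold change of 0.11 (SE 0.19, 95% interval -0.31 to 0.54) that was 0.21 without CNS2KO 399 and 0.01 without CNS2KO 408. Its partner Anxa2 had 113 and 131 CPM in CNS2KO 399 and 408, against 97.6, 102, 126, 125 and 164 CPM in WT 398, 402, 405, 1032 and 1037, and the genotypes again overlapped. Anxa2 had a log2 fold change of -0.01 (SE 0.22, 95% interval -0.49 to 0.48), which was 0.10 without CNS2KO 399 and -0.12 without CNS2KO 408. Per kilobase of exon, the level of S100a10 exceeded that of Anxa2 7.10-fold and 7.02-fold in CNS2KO 399 and 408, and 5.55-fold to 9.23-fold in the WT libraries.

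Lgals1 encodes galectin-1. It stood at 146 and 157 CPM in CNS2KO 399 and 408, against 136, 140, 116, 154 and 195 CPM in WT 398, 402, 405, 1032 and 1037. The CNS2KO libraries lay within the range of the WT libraries, above WT 398, 402 and 405, and only WT 1037 exceeded CNS2KO 408. Lgals1 had a log2 fold change of 0.03 (SE 0.21, 95% interval -0.42 to 0.49), which was 0.09 without CNS2KO 399, -0.03 without CNS2KO 408 and 0.21 with WT 398, 402 and 405 only. Lgals3 encodes galectin-3, the galectin with a collagen-like tail that macrophages hold at high levels. It stood at 6.80 and 1.20 CPM in CNS2KO 399 and 408, against 3.70, 5.28, 0.407, 7.01 and 4.62 CPM in WT 398, 402, 405, 1032 and 1037. The libraries of each genotype were spread widely, from 144 reads in CNS2KO 399 to 25 in CNS2KO 408 and from 130 reads in WT 1032 to 8 in WT 405. Its log2 fold change of -0.07 (SE 0.94, 95% interval -2.13 to 1.98) was -1.80 without CNS2KO 399 and 0.69 without CNS2KO 408. It was also positive without WT 402 (0.02) and without WT 1032 (0.19), so leaving out any of several single libraries turned its sign. Of 10 myeloid markers, all were in the table and 7 passed the filter; their summed level was 84.2 CPM in CNS2KO 399 and 99.9 CPM in CNS2KO 408, against 69.5 to 92.1 CPM in WT. Cst3 made up most of that sum, the macrophage lysozyme Lyz2 had 16.7 and 10.1 CPM in CNS2KO 399 and 408 against 0.182 to 9.26 CPM in WT. Tyrobp, an adaptor of myeloid and NK cell receptors picked out after its values were seen, had 5.06 and 1.72 CPM in CNS2KO 399 and 408, against at most 1.14 CPM in WT. Cd14 was at 0 in CNS2KO 399 and in WT 402, 405, 1032 and 1037, and its highest library had 7 reads. Of the 7 myeloid markers tested, 4 had positive and 3 negative log2 fold changes. The negative ones were Csf1r (-0.325, SE 0.493), Itgam (-0.395, SE 0.998) and Mpeg1 (-1.105, SE 2.177), each smaller in size than its SE. In CNS2KO 399 and 408, Itgam stood at 0.236 and 4.69 CPM and Mpeg1 at 0 and 1.48 CPM. In WT 398, 402, 405, 1032 and 1037, Itgam stood at 3.98, 2.85, 4.99, 2.97 and 1.40 CPM. Mpeg1 stood there at 0.708, 0, 0.712, 6.58 and 0 CPM, so WT 1032 held most of its WT level. By sign alone, the myeloid markers therefore did not lie on one side. The part of myeloid cells in the Lgals3 values was not tested.

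Vim, the vimentin transcript, had 273 and 261 CPM in CNS2KO 399 and 408, against 376, 283, 365, 335 and 359 CPM in WT 398, 402, 405, 1032 and 1037. The CNS2KO libraries were the lowest of the 7, with WT 402 close above them. Vim had a log2 fold change of -0.37 (SE 0.17, 95% interval -0.73 to -0.004), and it ranged from -0.43 to -0.33 under the alternatives run, with -0.39 without CNS2KO 399. Crip1, a small LIM-domain zinc protein that is a frequent marker of effector and memory lymphocytes, had 135 and 146 CPM in CNS2KO 399 and 408, against 114, 107, 119, 75.9 and 129 CPM in WT 398, 402, 405, 1032 and 1037. The CNS2KO libraries were the highest of the 7, and WT 1032 was the lowest. Crip1 had a log2 fold change of 0.37 (SE 0.21, 95% interval -0.09 to 0.83), which was 0.42 without CNS2KO 399. S100a13 and Crip1 were thus the 2 of 10 members whose CNS2KO libraries were the highest of the 7, an arrangement found in 3.76% of all tested genes.

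Over the 10 members, 6 had a negative and 4 a positive log2 fold change, against 52.6% negative among all tested genes, and the median was -0.04 against -0.03 over all tested genes. The members therefore did not lie on one side. With WT 398, 402 and 405 only, the median was 0.16.

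**Figure D2:**
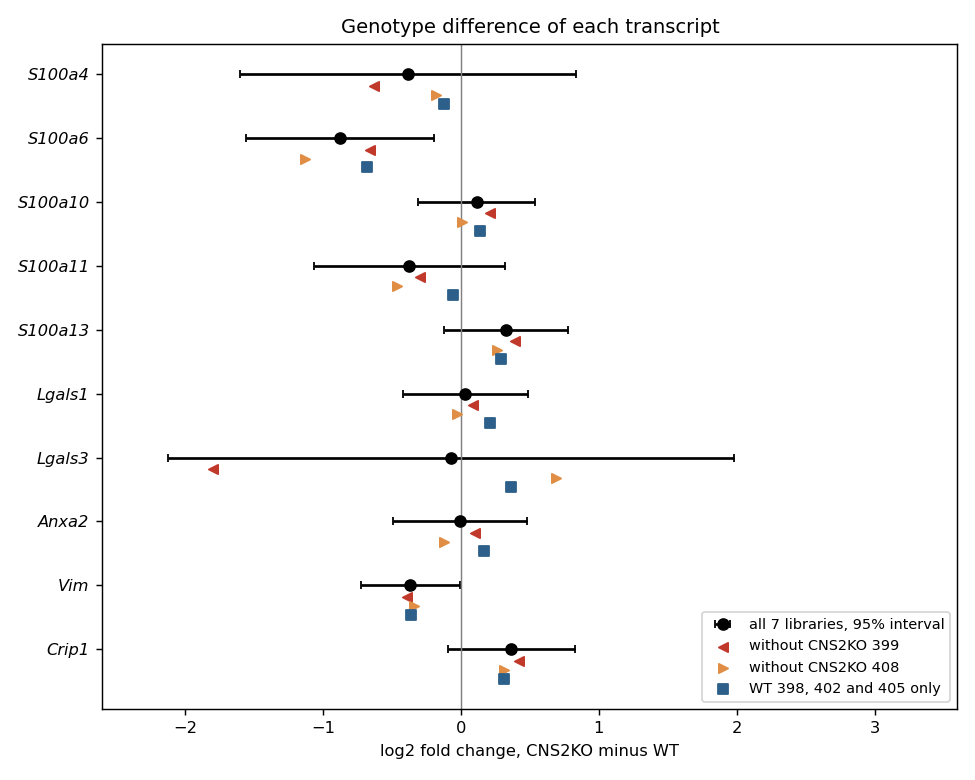
The horizontal axis gives the log2 fold change, CNS2KO minus WT, of each transcript, with black points and 95% intervals from all 7 libraries. Triangles leave out 1 CNS2KO library each, and squares use 3 of the WT libraries. The intervals of S100a6 and Vim end below 0, and Lgals3 moves between -1.80 and 0.69 with the CNS2KO library left out.

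The libraries differed in how many members they held at the top or the bottom. WT 1037 was the highest library for 5 of the 10 members (S100a4, S100a6, S100a11, Lgals1 and Anxa2) and the lowest for 0, while it was the highest for 13.9% of all tested genes. CNS2KO 408 was the highest for 2 members, S100a13 and Crip1, and the lowest for Vim. CNS2KO 399 was the highest for 0 members and the lowest for 1, S100a6, and it was the lowest library for 25.8% of all tested genes. The mean of the members' log2 levels, each less its own mean, was -0.01 and -0.13 in CNS2KO 399 and 408, against 0.01, -0.09, -0.24, 0.02 and 0.44 in WT 398, 402, 405, 1032 and 1037. In the same order, the medians were -0.01 and -0.03, against 0.0, -0.10, 0.03, 0.05 and 0.42. The means include Lgals3, which had only 25 reads in CNS2KO 408 and 8 in WT 405. Below 0 in mean, WT 405 was thus above 0 in median, and WT 1037 was highest by either. B cell markers summed to 1361 and 1101 CPM in CNS2KO 399 and 408, and to 1497 CPM in WT 1037, above 1189 to 1248 CPM in the other WT libraries. Their part in the levels of WT 1037 was not tested.

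**Figure D3:**
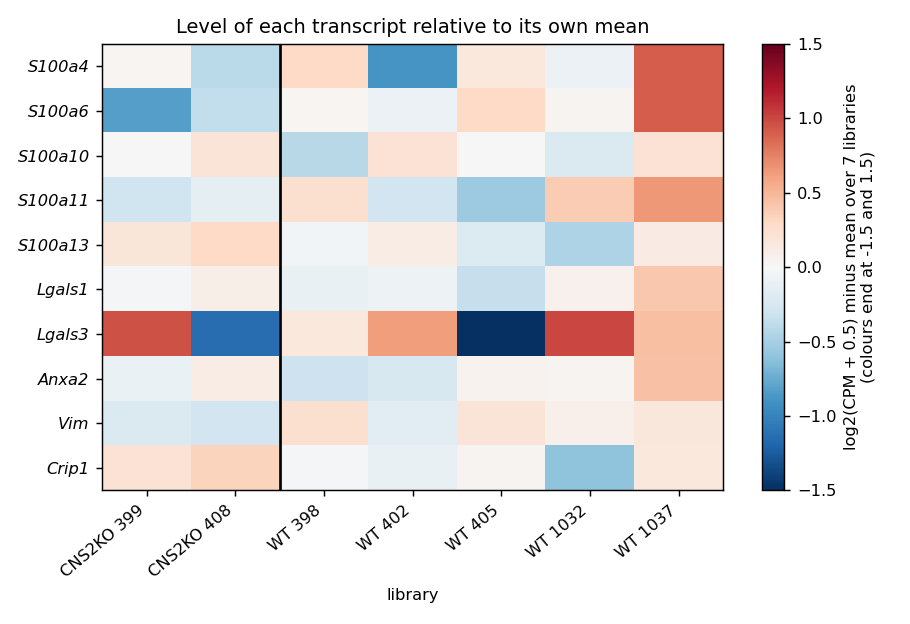
Rows are the 10 transcripts and columns the 7 libraries, CNS2KO left of the black line and WT right of it. Colour is log2(CPM + 0.5) less the transcript's mean over the 7 libraries. WT 1037 is red in most rows, S100a6 is lowest in CNS2KO 399, and Lgals3 follows an order of its own.

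Members were set side by side by the root mean square difference between their centred log2 profiles over the 7 libraries. The closest pair was S100a13 and Crip1, at 0.14, which lie on different chromosomes, and Lgals1 and Anxa2 followed at 0.18. S100a10 lay nearest to S100a13 (0.21) and not to its partner Anxa2. S100a4 and S100a6 were each nearest to Vim, at 0.41 and 0.37. Lgals3 was the farthest from each of the other 9, at 0.93 to 1.25. The spread among the WT libraries, as a coefficient of variation, ran between 10.8% for Vim and 58.1% for Lgals3. Of the 10 members, 5 exceeded the median of 20.6% over tested genes with a mean of at least 10 CPM. Lgals3 and S100a4 (45.8%) were among these 5 but had means under 10 CPM, so that median is no like reference for them. By the root mean square difference, the 5 genes outside the list nearest to the members' mean profile, of 8348 considered, were Zfp410, Etfb, Naa10, Moap1 and Pabpc1, at 0.077 to 0.097 over 7 libraries. Their CNS2KO minus WT log2 fold changes lay between -0.19 for Etfb, an electron transfer flavoprotein subunit, and 0.01 for Zfp410, a zinc finger transcription factor.

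Levels of different genes were compared per kilobase of merged exon, with exon lengths from GENCODE M21. S100a10 stood highest, at 595 ± 55.3 CPM per kilobase in CNS2KO (SD, n = 2) and 550 ± 102 in WT (SD, n = 5). Lgals1 followed in WT at 185 ± 36.8, then Vim at 157 ± 17.0, Crip1 at 151 ± 27.9, S100a13 at 109 ± 17.6, S100a11 at 99.1 ± 32.2, Anxa2 at 84.8 ± 18.1 and S100a6 at 64.4 ± 20.4 CPM per kilobase. S100a4 at 14.8 ± 6.76 and Lgals3 at 2.65 ± 1.54 CPM per kilobase closed the order. The WT ranges of neighbours in this order overlapped, except that S100a10 lay above Lgals1, S100a6 above S100a4 and S100a4 above Lgals3 in all 5 libraries. In CNS2KO, Crip1 stood at 195 ± 10.1, Lgals1 at 189 ± 9.64 and Vim at 122 ± 3.76 CPM per kilobase (SD, n = 2), so that Vim came after Crip1 and S100a13 (136 ± 7.93) there.

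The 5 S100 members lie on chromosome 3 in 2 groups, with S100a13, S100a4 and S100a6 in one and S100a11 and S100a10 side by side in the other. In gene order on GRCm38.p6, S100a6 is the second protein-coding gene after S100a4, and S100a5 between them had 0 reads in all 7 libraries. S100a7a, next after S100a6, also had 0 reads, and S100a14 and S100a16 on the other side had at most 4 and 1. S100a8 and S100a9, which encode the subunits of calprotectin in neutrophils and monocytes, had at most 43 and 2 reads in any library. In the first group the 3 members therefore lay among other measured S100 genes at 2.61 CPM or less in every library. Over all 12 other S100 symbols listed, 11 were in the table and 2 passed the filter, S100a1 at 0.789 ± 1.12 CPM in CNS2KO and 1.08 ± 1.02 CPM in WT, and S100a3 at 0.215 ± 0.304 and 0.562 ± 0.748 CPM (SD, n = 2 and 5). In this list 0 passed the test in either direction, and S100a2 was not analysed here.

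**Figure D4:**
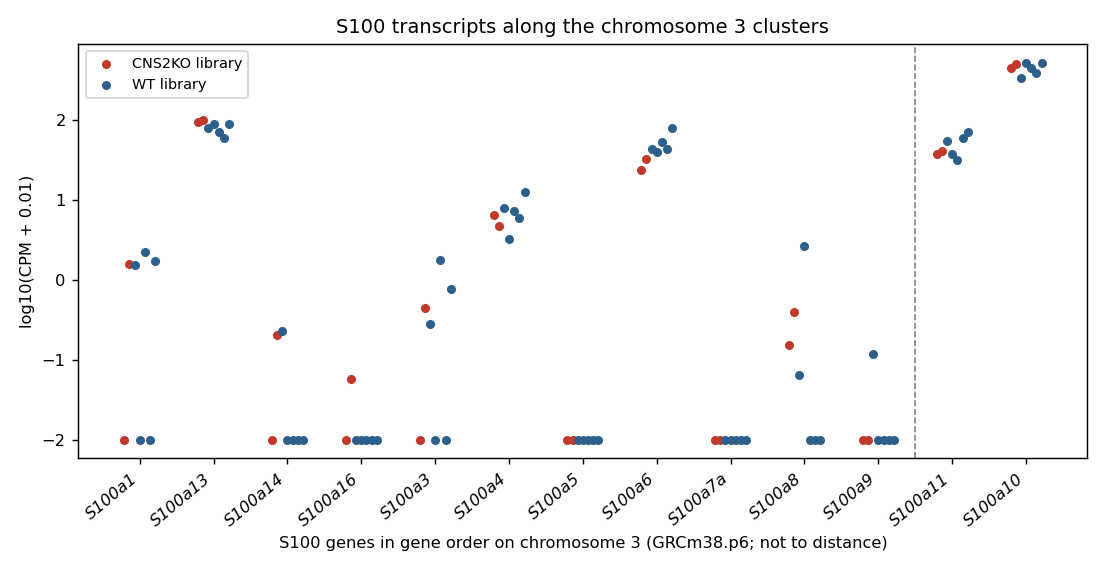
S100 genes measured in the table are placed in gene order on chromosome 3, with log10(CPM + 0.01) on the vertical axis and 1 point per library, CNS2KO left of WT within each gene. Points at -2 are libraries without reads, and the dashed line parts the 2 groups. S100a5 and S100a7a have 0 reads on either side of S100a6.

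Of 8 other galectin symbols, 6 were in the table, 4 passed the filter and 0 passed the test in either direction. Lgals9, the ligand of Tim-3, stood at 320 ± 43.8 CPM in CNS2KO and 316 ± 39.2 CPM in WT (log2 fold change 0.02, SE 0.17). Lgals8 stood at 145 ± 11.1 CPM in CNS2KO and 143 ± 26.2 CPM in WT, Lgals4 at 28.1 ± 1.78 and 23.4 ± 5.89 CPM, and Lgals7 at 0.430 ± 0.609 and 0.600 ± 0.627 CPM (SD, n = 2 and 5). For each of these 4 the group means differed by less than the SD of the WT libraries. Of 11 other annexins, 8 passed the filter and 0 the test, with 1 at an unadjusted p under 0.05. That 1, Anxa3, passed the filter only through its CNS2KO libraries, so nothing is read from its p-value. Anxa6, the large annexin with a doubled core, stood at 523 ± 47.4 CPM in CNS2KO and 618 ± 43.6 CPM in WT (log2 fold change -0.24, SE 0.15). Anxa5, the phosphatidylserine binder, stood at 152 ± 39.0 and 145 ± 23.1 CPM, Anxa7 at 68.0 ± 7.40 and 78.9 ± 11.7 CPM, and Anxa11 at 39.7 ± 9.07 and 42.4 ± 5.13 CPM in CNS2KO and WT.

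Other genes of the cell cortex, effector genes and genes of resting T cells were read beside these. Among all 14424 tested genes, 52.6% had a negative fold change. In edgeR's quasi-likelihood test 0.964% were lower and 1.54% higher in CNS2KO at an unadjusted p under 0.05. Of 18 partner and cytoskeletal genes, 17 were tested and 0 passed (0 at an unadjusted p under 0.05), with 6 positive and 11 negative fold changes (median -0.08, against -0.03 over all tested genes). Actb (beta-actin) had a log2 fold change of 0.18, the actin-sequestering thymosin Tmsb4x of 0.18, the actin crosslinker Flna of -0.30 and the non-muscle myosin heavy chain Myh9, a target of S100a4, of -0.23. Of 16 effector genes and their regulators, 0 passed (2 at an unadjusted p under 0.05), with 4 positive and 12 negative (median -0.31). That median was -0.16 without CNS2KO 399, -0.52 without CNS2KO 408 and -0.16 with WT 398, 402 and 405 only. The costimulatory receptor Icos stood at -0.26, the transcription factor Gata3 at 0.09, the integrin chain Itgae at -0.004 and the transcription factor Irf4 at -0.28. Of 12 genes of resting T cells, 0 passed (2 at an unadjusted p under 0.05), with 4 positive and 8 negative (median -0.18). Among them the egress receptor S1pr1 stood at -0.34, the transcription factor Foxp1 at -0.26 and the interleukin-7 receptor chain Il7r at -0.23. Effector genes and genes of resting T cells therefore had medians of the same sign, and neither list was tested as a set.

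The authors' deposited table holds a single signed number for each gene, without its groups, direction or log base. Positive values stood beside 9 of 10 members in the authors' deposited table, against 51.2% of the tested genes, and their median was 0.31 against 0.01 over the tested genes. The values in the authors' deposited table were 0.88 for S100a6, 0.78 for S100a4, 0.50 for S100a11, 0.39 for S100a13 and Lgals1, 0.23 for S100a10 and Vim, 0.20 for Crip1, 0.005 for Anxa2 and -0.12 for Lgals3. S100a13 and Crip1, with both CNS2KO libraries above WT in the counts, and S100a6 and Vim, with both below, thus had values of the same sign in the authors' deposited table. The sources used here do not say which samples it was made from.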

How the data were processed

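Regulatory T cells were sorted from mice, and SMARTer amplification of their total RNA preceded Proton library preparation, per the labels' protocols. STAR, BWA, edgeR and the build mm9 are named in the submitters' processing notes, with no roles; the read counter and annotation are not given in the sources used here. Unscaled counts of reads for each gene symbol were deposited, with a second table of log2 values, deposited with no statement of their scaling, and a table of 1 signed score for each gene, also deposited by the authors. Of each table of samples, 2 columns numbered 407, a number that the labels give to both genotypes, were not used, and 5 summary rows of the counter were left out, so that genes held 22.0 to 23.7% of each column. Strand use was not given. Reads shared with near-identical copies would count as not unique; S100a11 and Lgals1 have pseudogenes named after them.

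The counts were compared with edgeR 4.0.16 in R 4.3.3 (filterByExpr, TMM, two-sided quasi-likelihood test, Benjamini-Hochberg adjustment over all genes, FDR 0.05) on 2 CNS2KO and 5 WT libraries. Each standard error is the log2 fold change divided by the square root of F, and intervals are 95%. No label ties a sample to its own animal, and the p-values then reflect only how these libraries vary, which may be technical. Alternatives were other scalings, DESeq2 1.42.0, limma-voom (limma 3.58.1), no filter on low counts, subsets of the libraries and a term for libraries 1032 and 1037; limma on the authors' log2 values and the count of negative members were added after the data were seen. The members and lists were chosen with earlier results of these data known. Named genes are the members, Foxp3, up to 4 genes of highest mean CPM per list, and the 5 of nearest profile (log2(CPM + 0.5), mean of at least 10 CPM); others were picked after their values were seen. A gene that this rule names is not reported here. Marker lists served as checks: CD8 T and NK cell markers summed to 48.3 and 54.2 CPM in CNS2KO and 43.7 to 59.1 CPM in WT, and fibroblast and endothelial markers to 274 and 307 CPM in CNS2KO and 295 to 385 CPM in WT, nearly all from Pecam1, with Col3a1 and Dcn at 0 in all 7 libraries. Floors cover counting error only.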

Additional observations from a re-analysis of the deposited data

Results flagged for a closer look

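Among 46 genes and marker sums checked over the 5 WT libraries, in 3 a single library stood away from the rest, where about 1 in 20 would by chance. None of the 10 members was among them. S100a8 stood at 2.61 CPM in WT 402, from 43 reads, against 0.0545 CPM in the next library, WT 398. Etfb, named for its likeness to the members, stood at 66.9 CPM in WT 1037, against 49.2 CPM in the next library. The members' mean profile was itself highest in WT 1037, so the 1 in 20 does not hold for genes chosen by likeness. Nor does it hold for S100a8, which had 0 reads in WT 405, 1032 and 1037. The B cell markers summed to 1497 CPM in WT 1037, against 1248 CPM in the next library.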

How the results depend on the processing

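Without a filter on low counts 8 genes were called, under the other alternatives 0 were, and 0 of the 10 members were called under any of the 15 alternatives. S100a4, S100a6, S100a10, S100a11, S100a13, Vim and Crip1 kept the sign of their fold change in all 15. The median over the 10 members turned to 0.16 with WT numbers of 3 digits only and to 0.16 with a term for libraries 1032 and 1037, and ranged from -0.19 to 0.04 with 1 library left out. The number of members with a negative fold change ranged from 4 to 6. Anxa2 turned to 0.01 by limma-voom, to 0.02 on the authors' log2 values and to 0.17 with 3-digit WT numbers and with the term, and ranged from -0.12 to 0.12 with 1 library left out. Lgals3 turned to 0.36 with 3-digit WT numbers and with the term, and ranged from -1.80 to 0.69 with 1 library left out. Lgals1 ranged from -0.04 to 0.15 with 1 library left out and was 0.21 with 3-digit WT numbers and with the term. Without CNS2KO 408 the median over all tested genes was -0.125. The cause of these turns was not tested. Where a CNS2KO library was left out, the lone one was assumed to vary like WT. No paired analysis was possible because the genotypes share only the number 407, whose columns were not used. At 8 to 213 reads per library, Lgals3 and S100a4 were the members most limited by depth.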

Other observations

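Anxa3, picked out after its values were seen, was the 1 annexin at an unadjusted p under 0.05 in edgeR's quasi-likelihood test, and was not called. Only its CNS2KO libraries, where it was high, took it past the filter on low counts, so nothing is read from that p-value. The values of Anxa3 are a description. It had 25 and 27 reads in CNS2KO 399 and 408, against 1, 0, 0, 0 and 2 reads in WT 398, 402, 405, 1032 and 1037, or 1.18 and 1.29 CPM in CNS2KO against at most 0.117 CPM in WT. Ccr2, a chemokine receptor of effector cells also picked out after its values were seen, stood at 32.8 ± 9.76 CPM in CNS2KO (SD, n = 2) and 57.6 ± 12.4 CPM in WT (SD, n = 5), with CNS2KO 408 at 39.7 CPM close to WT 402 at 39.4 CPM.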
